A study of Mus musculus with 12 samples.

Results

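The autophagy genes were 42 of the 25093 genes in the count table of quiescent satellite cells (QSCs), the resident stem cells of skeletal muscle. They were taken by name: the protein-coding genes of the ATG, ULK1 to ULK4, LC3, GABARAP and WIPI families together with Becn1, Ambra1, Uvrag, Pik3c3, Pik3r4, Rb1cc1, Sqstm1, Nbr1, Optn, Lamp1, Lamp2, Tfeb and Tfe3. The rule used names and not measured values, and all 42 passed a filter on low counts that 19438 of all genes passed. Gli3 encodes the transcription factor that restrains Hedgehog target genes in its processed form. Between Gli3-deleted and control QSCs 0 of the 42 genes were called changed, beside 0.351% of all genes. The median autophagy gene was expressed well above the median of all genes, protein-coding or not. For 37 of the 42 the 95% interval of the change stayed within 1.5-fold in either direction.

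The 12 samples of the series were QSCs and activated satellite cells (ASCs), 3 per genotype and state, profiled by polyA RNA sequencing. Control mice carried Pax7-CreERT2/+, Gli3+/+ and the R26R-YFP reporter, and the deleted mice carried Pax7-CreERT2/+, Gli3 fl/fl and the same reporter. Both genotypes therefore carried the tamoxifen-dependent Cre driven from Pax7, which acts in satellite cells, and both received tamoxifen by injection and then in the diet. The cells are called Gli3+/+ and Gli3 Δ/Δ below. QSCs were sorted from uninjured hindlimb muscle as mononuclear cells positive for CD34 and α7-INTEGRIN and negative for CD11b, SCA1, CD45 and CD31. Each QSC library pooled the muscles of 2 to 3 mice, so that the spread between libraries is a spread between pools. The mice were males of mixed background; those of the whole study were between 2 and 10 months old, and the age for these libraries was not found in the sources used here. ASCs were sorted from muscle 3 days after cardiotoxin injury, and the 6 count columns that hold them carry no name that a sample label matches. They were not analysed here, and activation enters only through the authors' mean over all 12 libraries.

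Estimated counts came to 39556784, 65340069 and 47007056 in Gli3+/+ replicates 1 to 3 of the QSCs, and in Gli3 Δ/Δ replicates 1 to 3 to 51913963, 65750131 and 50417695. Levels are given as CPM, the counts of a gene per 1000000 counts of its library after TMM scaling. Gli3 itself was at 11.2, 9.71 and 9.75 CPM in Gli3+/+ cells against 9.54, 10.5 and 6.26 CPM in Gli3 Δ/Δ cells, with overlapping groups and a log2 fold change of -0.22 (SE 0.22, edgeR adjusted p = 0.916). In these libraries the whole-gene count did not separate the genotypes, which are taken from the labels; loss of the floxed part was not measured here. Satellite cell markers were abundant in every library, with Pax7 between 798 and 1157 CPM and the 11 listed markers summing to between 7267 and 9250 CPM.

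One library stood apart. Gli3+/+ replicate 3 held the highest or lowest of the 6 values for 59.7% of the 9592 genes at 10 CPM or more. It had the most Sdc4, a syndecan of satellite cells, at 2714 CPM against 891 to 1401 CPM in the other libraries, and the least Calcr, the calcitonin receptor of quiescent cells, at 130 CPM against 213 to 263 CPM. No member was called without this library.

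In macroautophagy, a double membrane closes around cytoplasmic cargo to form the autophagosome, which then fuses with the lysosome. The ULK1 kinase complex starts the process under the control of mTORC1 and AMPK, and the class III PI3-kinase complex around BECN1 marks the membrane with a phosphoinositide lipid. ATG9 vesicles and ATG2 supply lipid, and a ubiquitin-like conjugation system attaches the ATG8 proteins, LC3 and GABARAP, to the growing membrane. Cargo receptors such as SQSTM1 bind both the cargo and the ATG8 proteins. TFEB and TFE3, restrained by mTORC1, turn on autophagy and lysosome genes through E-boxes. In satellite cells autophagy is known for its part in keeping quiescent cells intact and in providing energy when they activate.

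Promoters of the autophagy genes were searched because TFEB and TFE3 bind the E-box CACGTG, which is its own reverse complement. The RefSeq promoter table (GRCm38.p6, 250 bases before to 50 after the start) held 42 windows for 36 of the members, without Atg12, Atg16l1, Becn1, Map1lc3a, Pik3c3 and Rb1cc1. CACGTG was in 5 of the 42 windows (11.9%), against 7.15% of all 32851 windows. Its longer form TCACGTGA, which contains CACGTG and is also a palindrome, was in 1 member window (2.38%) against 0.974% of all windows. The forkhead motif TGTTTAC, searched on both strands, was in 0 member windows against 3.65% of all. The median number of CpG dinucleotides was 19 in the member windows and 7 in all windows.

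Lamp1 and Atg3 are shown because theirs were the member windows with more than 1 E-box, which 195 of all windows (0.594%) had. The Lamp1 window held 4, a number reached by 8 of the 32851 windows. Both runs are on the plus strand, read 5′ to 3′ and end at the base before the annotated gene start, at chr8:13158911-13159160 for Lamp1 and chr16:45158579-45158784 for Atg3. Capitals mark CACGTG, and in the last box of Atg3 TCACGTGA.
Lamp1: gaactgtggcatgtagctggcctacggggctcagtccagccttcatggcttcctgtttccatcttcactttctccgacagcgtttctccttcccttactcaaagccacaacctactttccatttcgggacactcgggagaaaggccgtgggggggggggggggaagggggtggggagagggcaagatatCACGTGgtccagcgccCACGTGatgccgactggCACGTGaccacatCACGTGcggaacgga
Atg3: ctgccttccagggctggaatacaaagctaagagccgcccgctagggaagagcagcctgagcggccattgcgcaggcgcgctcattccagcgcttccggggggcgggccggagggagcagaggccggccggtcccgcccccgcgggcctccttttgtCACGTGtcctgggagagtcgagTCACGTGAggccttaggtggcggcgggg
The other windows with the E-box belonged to Atg5, Atg7 and Atg14. The Atg7 window lies 27.7 kb inside the annotated gene. The 5 genes with the box had log2 fold changes (Gli3 Δ/Δ over Gli3+/+) of 0.07 for Atg3, 0.06 for Atg5, 0.17 for Atg7, 0.09 for Atg14 and 0.13 for Lamp1, and none was called. A match says only that these letters are present, and binding was not measured.

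The autophagy genes were among the better expressed genes of QSCs. Their median level was 48.8 CPM against 2.56 CPM over all genes, which put the median member at the 82.8th percentile. CPM is not corrected for length. The members are all protein-coding by the rule, as are 16583 of the 25093 genes in this background, and protein-coding genes alone were not compared. In all, 41 of the 42 members had a mean above 1 CPM and 37 a mean of 10 CPM or more. Together they took between 0.305% and 0.351% of the counts of a library.

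Levels of different genes were compared per kilobase of merged exons. Sqstm1 (chr11:50199366-50210827, minus strand), which encodes the receptor that links ubiquitinated cargo to the autophagosome, was highest at 145 ± 19.5 CPM per kb (SD, n = 6 libraries). Gabarapl1 followed at 81.7 ± 12.9, Lamp1 at 80.2 ± 5.86 and Gabarap at 72.2 ± 4.40 CPM per kb, and the ranges of these last 3 overlapped from one to the next. Map1lc3a at 47.5 ± 4.24, Lamp2 at 33.5 ± 3.34, Nbr1 at 30.6 ± 3.50, Map1lc3b at 23.6 ± 3.50, Atg3 at 18.8 ± 2.01 and Ulk1 at 17.3 ± 2.64 CPM per kb completed the 10 highest. The 8 highest were 2 cargo receptors, both lysosomal membrane genes and 4 of the 5 ATG8 genes, while the receptor Optn was among the 3 lowest. Of the 41 neighbouring pairs in the order, 34 had overlapping ranges. The breaks lay between Sqstm1 and Gabarapl1, Gabarap and Map1lc3a, Map1lc3a and Lamp2, Gabarapl2 and Becn1, and at the lower end below Tfeb, below Optn and below Ulk4. With the longest coding transcript as the length, 9 of the 10 highest members were kept.

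**Figure D1:**
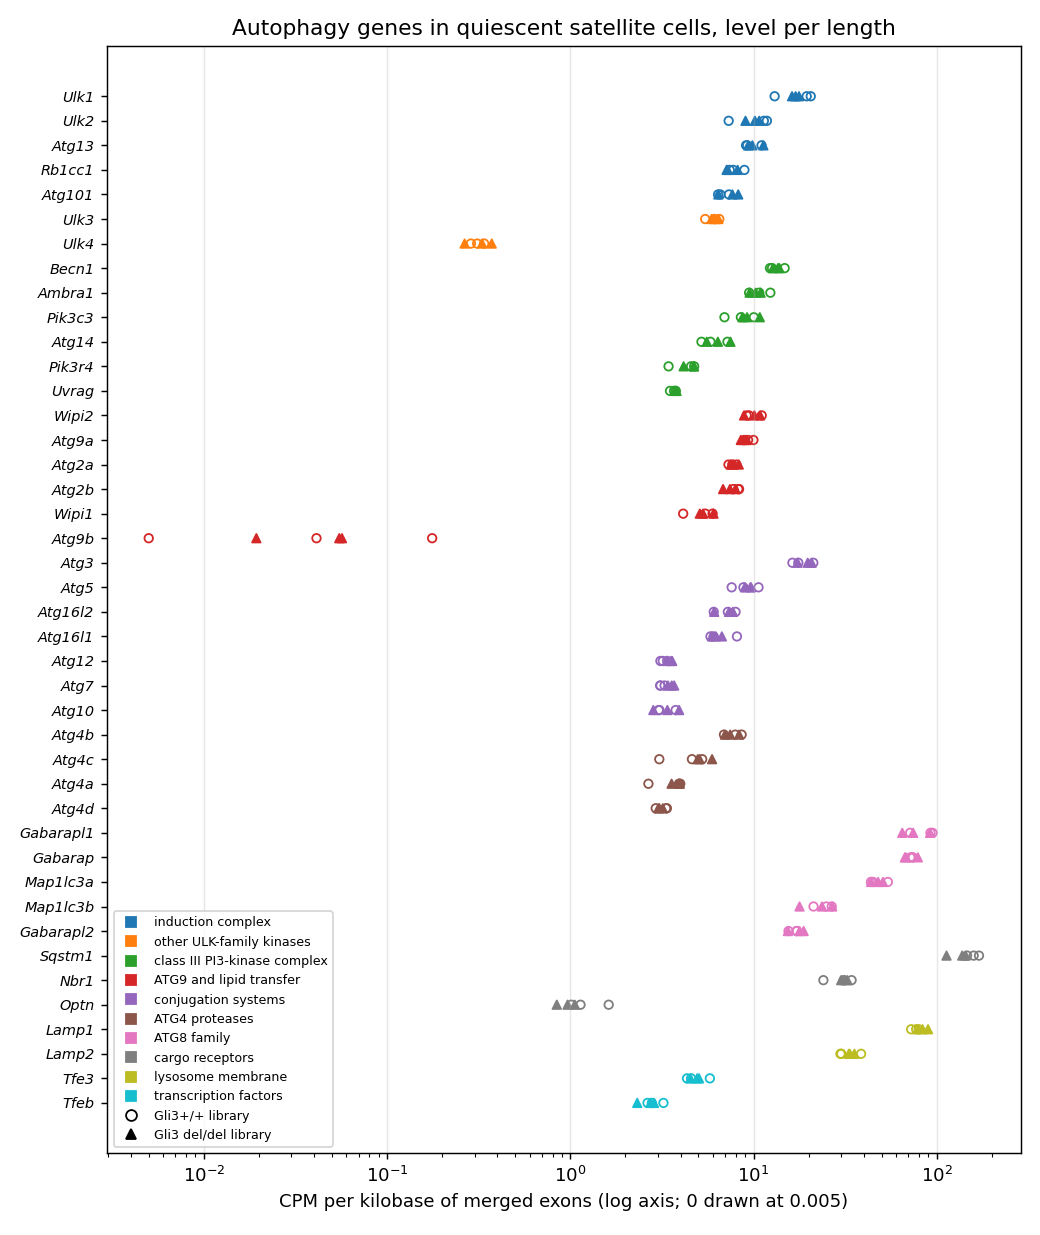
Level of each autophagy gene in the 6 QSC libraries, in CPM per kilobase of merged exons on a log axis, grouped and coloured by role; open circles are Gli3+/+ and filled triangles Gli3 Δ/Δ (drawn as del/del) libraries. Sqstm1 sits highest at a mean of 145, most core genes lie near 10, and Optn, Ulk4 and Atg9b lie far below the rest.

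Within each role the order was as follows. In the induction complex, the kinase gene Ulk1 led at 17.3 CPM per kb, followed by Ulk2 at 10.1, the adaptor genes Atg13 at 9.99 and Rb1cc1 at 7.78, and Atg101 at 7.12 CPM per kb. Ulk3, a kinase known from Hedgehog signalling that regulates GLI proteins, was at 6.08 ± 0.383 CPM per kb, and Ulk4 at 0.317 ± 0.0385. In the PI3-kinase group, the scaffold gene Becn1 led at 13.3 ± 0.931 CPM per kb, ahead of Ambra1 at 10.6, the catalytic subunit gene Pik3c3 at 9.04, Atg14 at 6.28, Pik3r4 at 4.39 and Uvrag at 3.71 CPM per kb.

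Among the genes for lipid supply, Wipi2, a phosphoinositide reader, was at 9.93 ± 0.911 CPM per kb and the scramblase gene Atg9a at 9.13. These genes were close to each other, for the lipid channel genes Atg2a and Atg2b were both at 7.77 and Wipi1 was at 5.33 CPM per kb. Atg9b, the paralog of Atg9a, was at 0.0580 ± 0.0618 CPM per kb. The conjugation enzymes ran from Atg3, the E2-like enzyme that loads the ATG8 proteins, at 18.8 down through Atg5 at 9.22, Atg16l2 at 7.08, Atg16l1 at 6.48, Atg12 at 3.37, the E1-like Atg7 at 3.36 and Atg10 at 3.34 CPM per kb. Of the ATG4 proteases, which process the ATG8 proteins, Atg4b was highest at 7.71 ± 0.709 CPM per kb and Atg4d lowest at 3.15. Of the transcription factors, Tfe3 was at 4.86 ± 0.521 and Tfeb at 2.76 ± 0.295 CPM per kb (n = 6), and their ranges did not overlap.

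The comparison of Gli3 Δ/Δ with Gli3+/+ QSCs asks what loss of GLI3 does to resting stem cells. Genes counted as called where the edgeR quasi-likelihood test gave a Benjamini-Hochberg adjusted p under 0.05 over all 25093 genes and the change was at least 1.2-fold. By this rule 0 of the 42 autophagy genes were called, against 88 of all genes (0.351%), 47 of them higher (0.187%) and 41 lower (0.163%) in Gli3 Δ/Δ cells. At an unadjusted p under 0.05, 0 members passed, against 7.11% of all genes. DESeq2 also called 0 members, against 1.64% of the 23369 genes to which it gave an adjusted p. In bulk samples, a change in the number of cells of a type and a change in the RNA per cell cannot be told apart.

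The changes were small as well as uncalled. The median log2 fold change was 0.022 over the members and -0.031 over all genes, with 23 members higher and 19 lower in Gli3 Δ/Δ cells. The median size of the change, regardless of sign, was 0.074 on the log2 scale over the 37 members at 10 CPM or more and 0.128 over all 9592 such genes. The 95% interval of the change lay within 1.5-fold for 94.6% of these members, and for 63.8% of such genes. Within 2-fold it lay for 41 of the 42 members. The 5 members whose intervals passed 1.5-fold were Sqstm1 (-0.60 to 0.06), Optn (-0.96 to 0.17), Atg4c (-0.17 to 0.79), Ulk4 (-0.51 to 0.60) and Atg9b (-3.41 to 2.05).

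**Figure D2:**
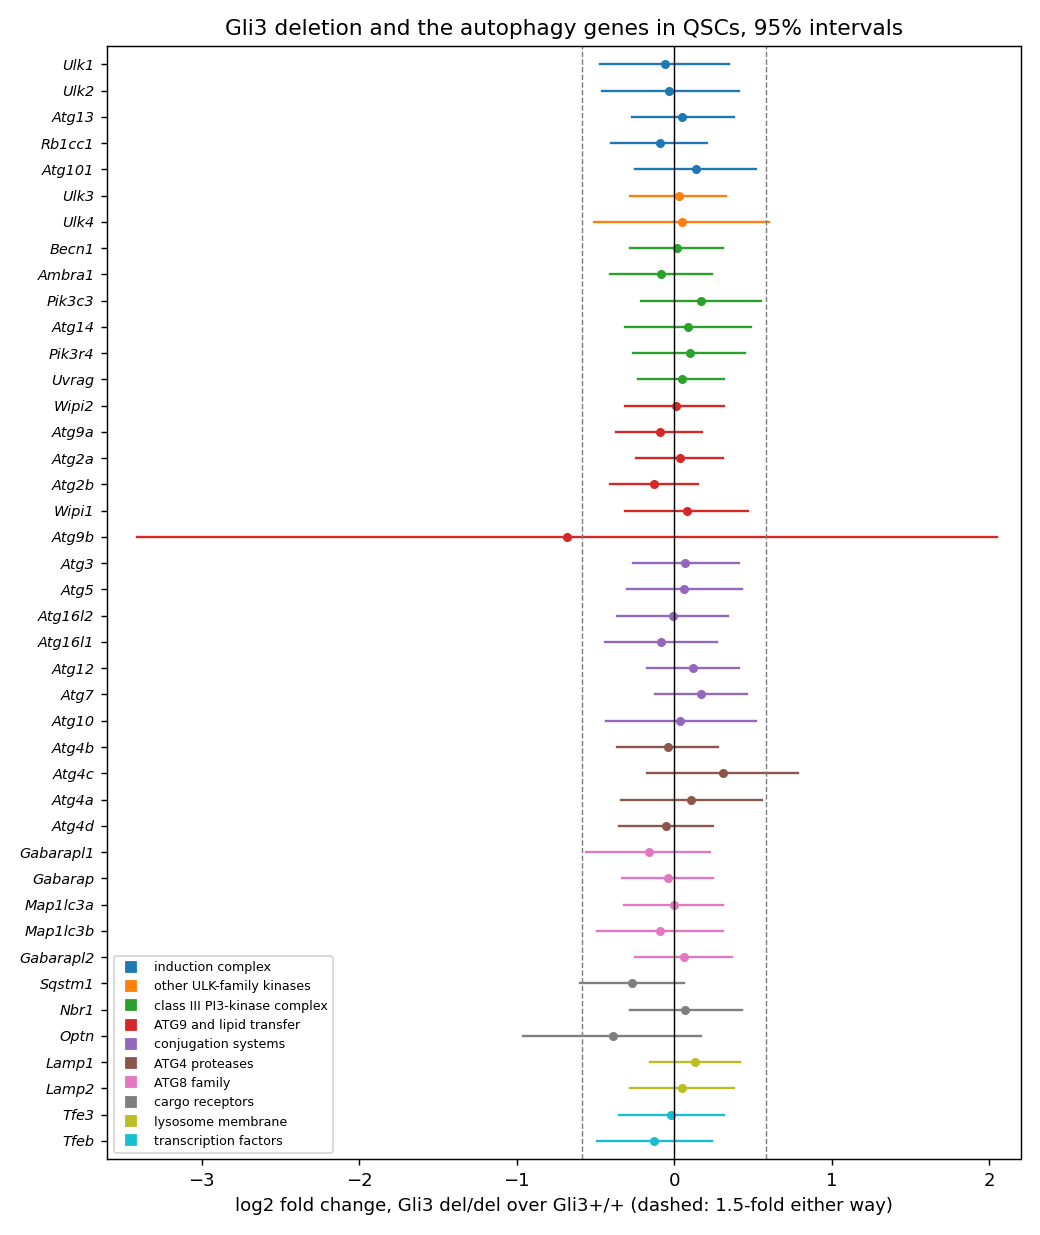
Log2 fold change of each autophagy gene in QSCs, Gli3 Δ/Δ (drawn as del/del) over Gli3+/+ (3 libraries each), with 95% intervals from the edgeR quasi-likelihood fit, coloured by role; dashed lines mark 1.5-fold. All 42 intervals cross 0, and Atg9b, at 0 to 0.695 CPM, has by far the widest.

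Sqstm1 had the smallest p of the members. It was at 491, 534 and 571 CPM in Gli3+/+ cells against 462, 379 and 483 CPM in Gli3 Δ/Δ cells. Every Gli3 Δ/Δ library lay below every Gli3+/+ library, but the log2 fold change of -0.27 (SE 0.14) was not called (edgeR adjusted p = 0.792). Without Gli3+/+ replicate 3 it was -0.22, and without Gli3 Δ/Δ replicate 2, the lowest library, -0.17.

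Atg7 (chr6:114643097-114860614, plus strand), the enzyme that starts both conjugation reactions, was at 21.6, 22.8 and 21.7 CPM in Gli3+/+ and at 23.8, 25.7 and 24.9 CPM in Gli3 Δ/Δ libraries. The groups did not overlap and the log2 fold change was 0.17 (SE 0.13, edgeR adjusted p = 0.885). Atg12, the ubiquitin-like protein joined to ATG5, was at 26.05, 23.9 and 24.6 CPM in Gli3+/+ and at 27.7, 27.3 and 26.06 CPM in Gli3 Δ/Δ libraries, and its groups only just failed to overlap. Sqstm1, Atg7 and Atg12 were the 3 members without overlap (7.14%), 2 of them higher and 1 lower in Gli3 Δ/Δ cells. Over all genes 13% had groups without overlap, 6.39% higher and 6.57% lower.

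Optn (chr2:5020642-5064051, minus strand), a receptor for ubiquitinated mitochondria and bacteria, was at 3.80, 4.27 and 6.08 CPM in Gli3+/+ and at 3.97, 3.63 and 3.17 CPM in Gli3 Δ/Δ libraries. The groups overlapped, and Gli3+/+ replicate 3 was the one high library. The log2 fold change was -0.39 (SE 0.25, edgeR adjusted p = 0.847) with that library and -0.17 without it. Atg4c (chr4:99193934-99259787, plus strand) was at 17.6, 15.5 and 10.3 CPM in Gli3+/+ and at 16.6, 17.0 and 19.9 CPM in Gli3 Δ/Δ libraries. Here the same library was the one low value. The log2 fold change was 0.31 (SE 0.21, edgeR adjusted p = 0.877) with it and 0.11 without it.

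The other members with the smallest p in each direction moved less. Lamp1 (chr8:13159161-13175338, plus strand), a glycoprotein of the lysosomal membrane, was at 207, 194 and 213 CPM in Gli3+/+ and at 210, 224 and 240 CPM in Gli3 Δ/Δ libraries, a log2 fold change of 0.13 (0.16 without Gli3+/+ replicate 3). Pik3c3 was at 38.1, 44.8 and 31.0 CPM in Gli3+/+ and at 41.2, 38.9 and 48.3 CPM in Gli3 Δ/Δ libraries, a log2 fold change of 0.17 that was 0.04 without Gli3+/+ replicate 3. Both pairs of groups overlapped. Atg2b was at 105, 111 and 112 CPM in Gli3+/+ and at 107, 100 and 91.8 CPM in Gli3 Δ/Δ libraries (log2 fold change -0.13, and -0.11 without Gli3+/+ replicate 3). Gabarapl1 (chr6:129533160-129542346, plus strand) was at 144, 191 and 186 CPM in Gli3+/+ and at 150, 131 and 185 CPM in Gli3 Δ/Δ libraries (log2 fold change -0.16, between -0.31 and -0.05 with single libraries left out). For both genes 1 or more Gli3 Δ/Δ libraries lay inside the Gli3+/+ range.

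**Figure D3:**
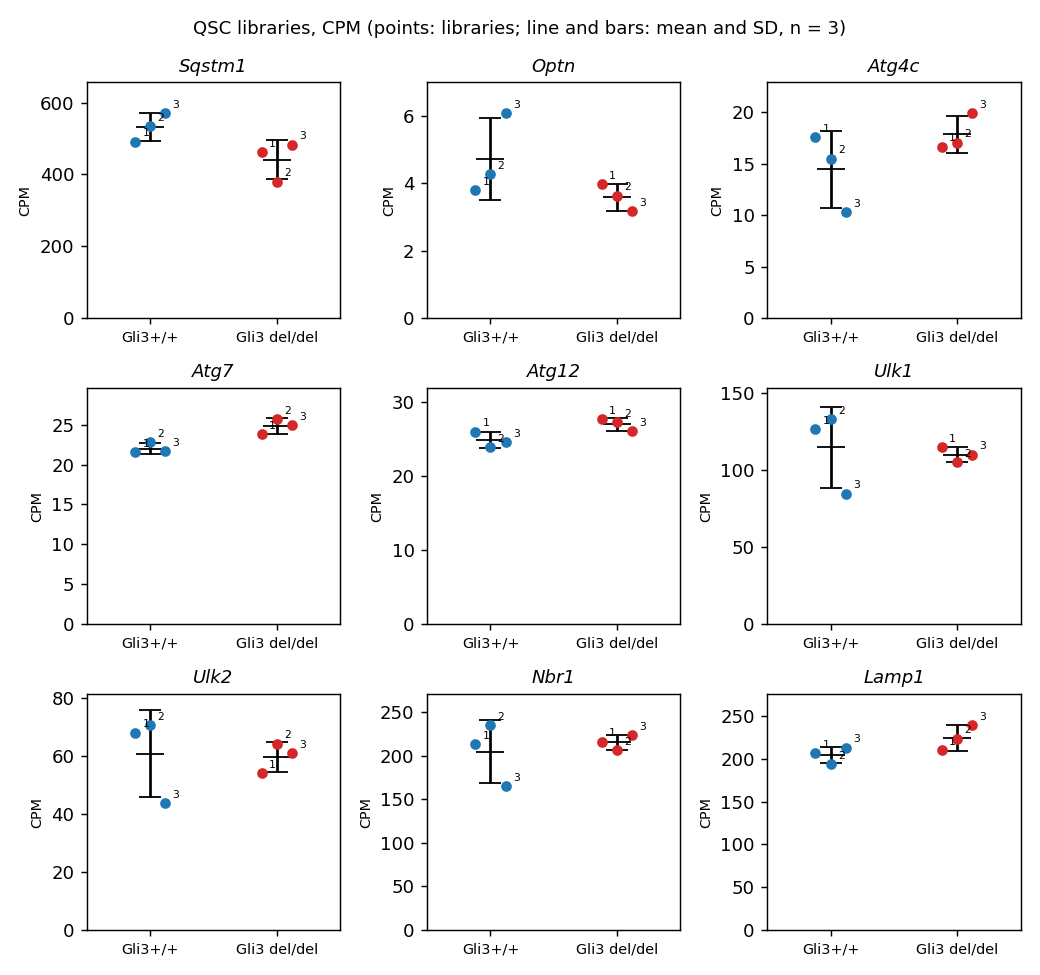
CPM in each QSC library (points, numbered by replicate) with group mean and SD (n = 3) for 9 autophagy genes, Gli3+/+ in blue and Gli3 Δ/Δ (drawn as del/del) in red, each axis starting at 0. Sqstm1, Atg7 and Atg12 have groups that do not overlap, and Gli3+/+ replicate 3 is the single low library for Atg4c, Ulk1, Ulk2 and Nbr1 and the single high one for Optn.

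The leading genes of the other roles had genotype groups that overlapped. Ulk1 was at 127, 133 and 84.6 CPM in Gli3+/+ and at 115, 105 and 110 CPM in Gli3 Δ/Δ libraries (log2 fold change -0.06, and -0.24 without Gli3+/+ replicate 3, edgeR adjusted p = 0.646). That was the smallest adjusted p of any member under any setting tried. Becn1 was at 86.9, 89.1 and 104 CPM in Gli3+/+ and at 96.1, 90.2 and 97.8 CPM in Gli3 Δ/Δ libraries (log2 fold change 0.02). Atg3 was at 51.5, 55.4 and 66.9 CPM in Gli3+/+ and at 62.4, 54.9 and 65.5 CPM in Gli3 Δ/Δ libraries (log2 fold change 0.07). In each of these genes Gli3+/+ replicate 3 was an extreme of the 6 libraries.

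Wipi2 was at 99.7, 117 and 96.7 CPM in Gli3+/+ and at 107, 93.6 and 115 CPM in Gli3 Δ/Δ libraries (log2 fold change 0.01). Atg4b was at 57.1, 65.8 and 71.3 CPM in Gli3+/+ and at 69.1, 57.8 and 61.7 CPM in Gli3 Δ/Δ libraries (log2 fold change -0.04). Ulk3 was at 25.4, 27.0 and 22.7 CPM in Gli3+/+ and at 24.6, 26.7 and 25.2 CPM in Gli3 Δ/Δ libraries (log2 fold change 0.03). All 3 pairs of groups overlapped widely, and the sign of these 3 changes depended on which libraries were kept. The groups of both transcription factors overlapped too. Tfe3 was at 40.2, 42.3 and 53.5 CPM in Gli3+/+ and at 46.7, 45.7 and 41.9 CPM in Gli3 Δ/Δ libraries (log2 fold change -0.02). Tfeb was at 18.3, 15.8 and 15.0 CPM in Gli3+/+ and at 13.1, 15.5 and 16.2 CPM in Gli3 Δ/Δ libraries (log2 fold change -0.13, SE 0.16).

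By role, the median log2 fold changes were -0.027 over the 5 genes of the induction complex, 0.037 over the 2 other ULK-family kinases, 0.068 over the 6 genes of the PI3-kinase group and -0.043 over the 6 genes for lipid supply. They were 0.064 over the 7 conjugation genes, 0.036 over the 4 ATG4 proteases and -0.039 over the 5 ATG8 genes. The 3 cargo receptors had a median of -0.269, which is the value of Sqstm1, the 2 lysosomal membrane genes 0.093 and the 2 transcription factors -0.072. No role held a member called or a member at an unadjusted p under 0.05. Of the genes for the ATG8 proteins, the summed level ran from 525 to 619 CPM in Gli3+/+ and from 476 to 612 CPM in Gli3 Δ/Δ libraries.

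Some members overlap other genes in the annotation, and whether reads were shared was not tested. Map1lc3b shares its strand with the predicted gene Gm20388, which covers all 8400 bases of it and was itself at 93.9 CPM. Ulk4, at 2.25 to 3.17 CPM, overlaps 5157 bases of Ctnnb1 (530 CPM) on the opposite strand, and Atg4d, Atg4b and Atg16l2 overlap Kri1, Thap4 and Fchsd2 in the same way. The kit keeps strand, but the strand setting used for counting was not given in the sources used here. The levels of Ulk4, Atg4d, Atg4b and Atg16l2 carry that uncertainty. For Map1lc3b the overlap is on the same strand, which no strand setting separates, so its level is uncertain under any setting.

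The median SD of log2(CPM + 1) within a genotype was 0.151 over the members and 0.168 over all genes, and it was 0.146 over the 37 members at 10 CPM or more against 0.19 over all such genes. Gli3+/+ replicate 3 held the highest value for 11 members and the lowest for 13, together 24 of 42 (57.1%), close to its 59.7% over genes at 10 CPM or more. The other 5 libraries were an extreme for 4 to 16 members each. Among the 13 lowest there were Atg4c, Ulk2, Atg4a, Ulk1, Pik3c3, Wipi1, Pik3r4 and Nbr1, with log2 differences from the mean of the other libraries between -0.70 (Atg4c) and -0.40 (Nbr1). Among the 11 highest were Optn, Atg16l1, Tfe3, Sqstm1, Ambra1 and Lamp2, with log2 differences between 0.58 (Optn) and 0.26 (Lamp2).

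Ulk2 shows the pattern plainly, at 43.7 CPM in that library against 54.0 to 70.7 CPM in the other 5. Nbr1, a cargo receptor related to Sqstm1 in function, was at 165 CPM against 207 to 236 CPM. Atg16l1, which carries the ATG12 and ATG5 conjugate to the membrane, was at 78.2 CPM against 56.1 to 64.7 CPM. Without that library the log2 fold change between the genotypes moved from -0.03 to -0.22 for Ulk2 and turned its sign for Atg4a (0.11 to -0.05), Wipi1 (0.08 to -0.06), Pik3r4 (0.10 to -0.04), Nbr1 (0.07 to -0.06) and Atg16l1 (-0.08 to 0.08). The summed level of the 42 genes nevertheless varied little, at 3157, 3403 and 3338 CPM in Gli3+/+ and 3266, 2994 and 3372 CPM in Gli3 Δ/Δ libraries. Without Gli3+/+ replicate 3 there were again 0 members called, against 91 of all genes.

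**Figure D4:**
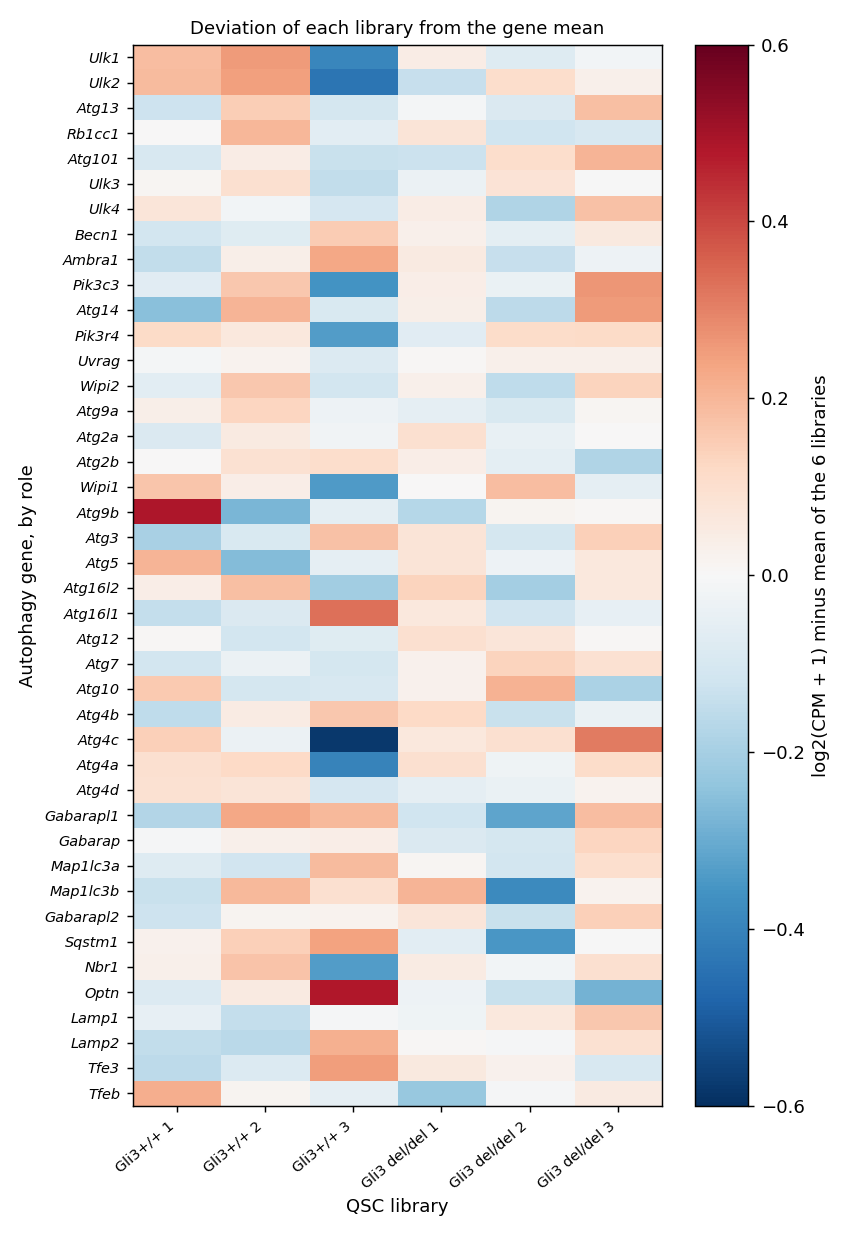
Deviation of each QSC library from the gene's mean over the 6 libraries, in log2(CPM + 1), for the 42 autophagy genes ordered by role (del/del is Gli3 Δ/Δ). The strongest colours stand in the column of Gli3+/+ replicate 3, an extreme of the 6 libraries for 24 of the 42 genes.

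Other cell types were scarce in these sorts, though not absent. The 9 macrophage markers summed to between 11.1 and 30.9 CPM, the 6 endothelial markers to between 135 and 216 CPM and the 6 markers of myofibers to between 51.7 and 71.7 CPM. The 6 fibro-adipogenic markers summed to between 175 and 420 CPM, led by Col1a1, and the 5 mural cell markers to between 165 and 412 CPM, led by Acta2. Both sums were highest in Gli3+/+ replicate 3. The 5 Schwann cell markers, led by Mbp, summed to 99.4, 75.8 and 108 CPM in Gli3+/+ and to 41.5, 63.9 and 58.1 CPM in Gli3 Δ/Δ libraries. No gene of these lists was called by edgeR with all 6 libraries, and no listed marker was at 0 in all libraries. DESeq2 called the markers Sox10 (log2 fold change -1.11), Pi16 (-1.07) and Uty (0.60). The 11 genes of the dissociation response, led by Egr1, summed to between 42040 and 59410 CPM, so the cells carried a strong immediate early signature in both genotypes. Their part in the levels of the autophagy genes was not tested. Y-linked genes were present in every library, with Ddx3y between 130 and 203 CPM, and Xist was between 0.708 and 1.79 CPM.

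Genes around the members, taken from lists by function, were then counted in the same fit. None was called by edgeR with all 6 libraries, against 0.351% of all genes, and counts at an unadjusted p under 0.05 stand beside 7.11% of all genes. Of 12 further genes of the core machinery, 6 were higher and 6 lower in Gli3 Δ/Δ cells, and the smallest p values belonged to Sh3glb1, a partner of BECN1 (log2 fold change 0.20), and Ei24 (0.15). Of 13 genes for fusion with the lysosome, 8 were higher and 5 lower, led by the SNARE gene Vamp8 (0.27) and the tethering gene Vps41 (0.15), which were 0.10 and 0.06 without Gli3+/+ replicate 3. Their median log2 fold changes were 0.012 and 0.020.

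Among the genes for mitophagy and other selective receptors, Bnip3l, a mitophagy receptor in the mitochondrial membrane, was at 80.3, 73.6 and 57.7 CPM in Gli3+/+ and at 89.4, 88.7 and 101 CPM in Gli3 Δ/Δ libraries. The groups did not overlap, but the log2 fold change of 0.40 (SE 0.15, edgeR adjusted p = 0.623) did not pass the test over all genes, and it was 0.27 without Gli3+/+ replicate 3, the lowest library. The median over the 13 measured genes of the list was 0.002.

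Of 27 lysosomal hydrolases and channels, 16 were higher and 11 lower, with a median of 0.043, and 3 (against 7.11% of all genes) had an unadjusted p under 0.05, each of them higher. Ctsf, a cathepsin, was at 33.8, 44.0 and 40.1 CPM in Gli3+/+ and at 46.7, 58.3 and 61.7 CPM in Gli3 Δ/Δ libraries (log2 fold change 0.50, SE 0.16, edgeR adjusted p = 0.461). Gaa, the acid glucosidase that breaks down lysosomal glycogen, was at 98.8, 81.6 and 67.2 CPM in Gli3+/+ and at 109, 121 and 117 CPM in Gli3 Δ/Δ libraries (log2 fold change 0.49, edgeR adjusted p = 0.478). The groups of both genes did not overlap, but neither was called. Without Gli3+/+ replicate 3 the log2 fold changes were 0.51 for Ctsf and 0.36 for Gaa. The list as a whole summed to 3134, 3118 and 3142 CPM in Gli3+/+ and to 3007, 3235 and 3396 CPM in Gli3 Δ/Δ libraries, which overlap.

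Of 15 subunits of the V-ATPase, the proton pump that acidifies lysosomes, 10 were higher and 5 lower, and 1 had an unadjusted p under 0.05. Atp6v0c, the subunit of its membrane ring, was at 94.1, 84.8 and 126 CPM in Gli3+/+ and at 73.6, 54.0 and 64.6 CPM in Gli3 Δ/Δ libraries (log2 fold change -0.66, SE 0.19, edgeR adjusted p = 0.361, and -0.48 without Gli3+/+ replicate 3). Atp6v1b2 had the next smallest p, at a log2 fold change of -0.21, which was -0.05 without Gli3+/+ replicate 3. Of 27 upstream regulators, 8 were higher and 19 lower, with a median of -0.128, and 1 had an unadjusted p under 0.05. It was Deptor, an inhibitor of mTOR, at 391, 380 and 602 CPM in Gli3+/+ and 114, 216 and 153 CPM in Gli3 Δ/Δ libraries (log2 fold change -1.51, SE 0.27, edgeR adjusted p = 0.0744). The groups did not overlap. Deptor was called by DESeq2 (log2 fold change -1.50, adjusted p = 9.69e-06) and by edgeR without Gli3 Δ/Δ replicate 2 (-1.78, adjusted p = 0.0443), and not in the other 8 refits, where the edgeR adjusted p lay between 0.0715 and 0.36. Its log2 fold change was -1.26 without Gli3+/+ replicate 3. Mlst8, a subunit of both mTOR complexes, followed at a log2 fold change of 0.30 (edgeR adjusted p = 0.755).

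Activation could be read only indirectly. The authors' tables give each gene's mean over all 12 libraries, scaled by size factors, and this mean, rescaled to CPM, was set beside the mean of the 6 QSC libraries as a log2 ratio. The QSC libraries are among the 12 and the 2 values were scaled separately, so the ratio is a description without an error or a test, it dilutes any difference between the states, and it cannot be split by genotype. Its median was -0.18 over the 42 members and -0.03 over the 14696 genes at 1 CPM or more, and 14 of the 42 members lay above the latter.

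The make-up of the libraries moved with this ratio. All 9 macrophage markers were higher in the mean that includes ASCs, with a median log2 ratio of 6.05 and values from 2.42 for Cd68 to 7.23 for Adgre1. The 6 myofiber markers ranged from -0.39 for Myh4 to 6.41 for Ttn, with a median of 0.91, the 6 fibro-adipogenic markers had a median of 1.17 and the 5 Schwann cell markers one of 0.98. The 11 satellite cell markers had a median of -0.61, with Myod1 highest at 1.22, and the 11 genes of the dissociation response one of -0.88. The 27 lysosomal hydrolases and channels, which macrophages also express, had a median of 0.34, with Ctsd highest at 1.62. The part of other cells and of the dissociation response in the ratios of the autophagy genes was not tested.

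The genes for the ATG8 proteins all lay below the median of -0.03 over genes at 1 CPM or more. Their ratios were -0.71 for Gabarapl1, -0.66 for Map1lc3b, -0.64 for Map1lc3a, -0.18 for Gabarap and -0.12 for Gabarapl2. The receptors Sqstm1 (-0.43) and Nbr1 (-0.45) and the kinase gene Ulk1 (-0.43) were also lower in the mean that includes ASCs. In all, 5 members were below -0.5, the 3 first named with Atg16l2 (-0.64) and Atg14 (-0.55), which is 11.9% of the members against 19.2% of genes. Genes on the other side were Lamp1 (0.48), Atg4a (0.49), Optn (0.47) and Atg5 (0.42). The 2 lysosomal membrane genes thus lay on opposite sides, since Lamp2 was at -0.34, and so did the 2 transcription factors, with Tfe3 at 0.21 and Tfeb at -0.29.

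Above 0.5 stood 2 members, Wipi1 and Atg9b, against 22.5% of genes. Wipi1 (chr11:109573331-109611967, minus strand), a phosphoinositide-binding protein of the forming autophagosome, was at 23.6 CPM in the QSC libraries and at 47.9 CPM in the authors' mean, a log2 ratio of 1.02. Atg9b (chr5:24384181-24392143, minus strand) had counts of 28, 0 and 7 in the Gli3+/+ and of 4, 15 and 11 in the Gli3 Δ/Δ QSC libraries. It was at 0.230 CPM there and at 12.6 CPM in the authors' mean, a log2 ratio of 5.77.

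**Figure D5:**
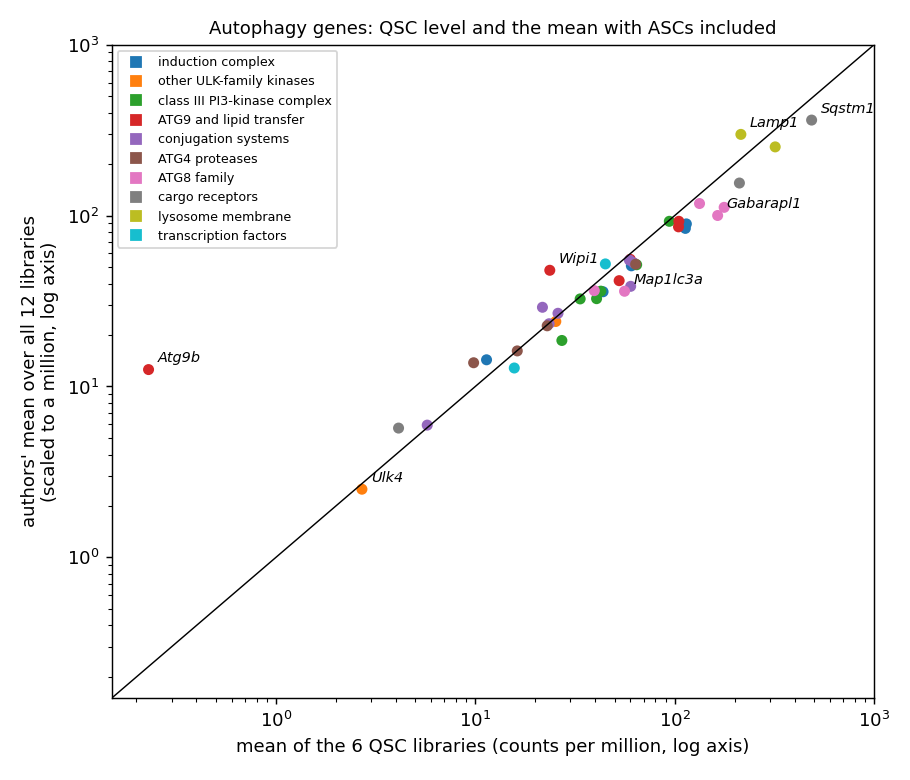
Autophagy genes by their mean over the 6 QSC libraries (CPM, x) and the authors' mean over all 12 libraries scaled to CPM (y), both on log axes and coloured by role; the line marks equal values. Most genes lie close to the line, Gabarapl1 and Map1lc3a lie below it, and Wipi1 and Atg9b stand above it.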

How the data were processed

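RNA was sequenced from sorted QSCs and ASCs. The authors deposited estimated counts per gene, made with salmon on GENCODE transcripts of GRCm38 and summed with tximport, keeping genes with 5 or more reads in 2 or more samples, with 38.8% of the values not whole (tolerance 0.01). Counts were rounded here. Of the count columns, 6 were not used because their names matched no sample label, so the planned ASC comparisons could not be run. The authors' comparison tables hold fold changes and p-values, which were not used, and a mean signal over all samples (counts divided by DESeq2 size factors), which was.

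The test was edgeR 4.0.16 (R 4.3.3) on the 6 QSC libraries, with TMM scaling, glmQLFit, glmQLFTest and Benjamini-Hochberg adjustment over all genes. Gene lengths and coordinates came from GENCODE vM21 (GRCm38), where 96.3% of gene identifiers had the same version. The code was tested on counts simulated for these 6 libraries, with 200 changed genes drawn from those above 1 CPM. There edgeR recovered 19% of the 2-fold and 82% of the 4-fold changes, with 12 false calls. DESeq2 recovered 52% and 96%, with 66 false calls. The changed genes were not drawn at the levels of the members, so these shares are not the members' own. Alternatives were DESeq2 1.42.0, its size factors, filterByExpr, no minimum fold, a replicate block and each library left out. The members and lists were chosen with earlier results of these data known. Values were given for the 4 members of smallest p in each direction, the highest per length of each role, those without overlap and the 2 of smallest p of each list; Tfeb, Ulk2, Nbr1, Atg16l1 and the members discussed under the authors' mean were added after their values were seen. Some genes of the lists are not reported here.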

Additional observations from a re-analysis of the deposited data

Results flagged for a closer look

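Atg9b drew attention because the authors' mean over all 12 libraries was 609.2 scaled counts, while its 6 QSC libraries held 65 counts in all. The QSC counts amount to 0.889% of the 7311 scaled counts that this mean implies over 12 libraries. Which ASC libraries hold the rest, and of which genotype, was not analysed here. Atg9b overlaps Nos3, the endothelial nitric oxide synthase gene, by 294 bases on the opposite strand. Nos3 was at 2.54 to 7.67 CPM in QSCs and at 312 scaled counts in the authors' mean, and its part in the Atg9b value was not tested.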

How the results depend on the processing

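No member was called under any setting tried, and the smallest adjusted p of a member ranged from 0.646 (without Gli3+/+ replicate 3) to 1.0. The number of all genes called moved from 88 to 384 with DESeq2 and ranged from 58 (without Gli3 Δ/Δ replicate 3) to 103 (without Gli3+/+ replicate 1) with each library left out. With the replicate block, 0 members and 79 genes were called. Same-numbered libraries of the genotypes had deviations from their group means that correlated at -0.276, -0.02 and -0.064. Differently numbered libraries correlated at between -0.241 and 0.329. With 3 libraries a genotype, these values cannot show whether libraries were paired or shared a batch. The 16 named members kept their sign in all 64 values under DESeq2, its size factors, filterByExpr and the block. Leaving out single libraries, 9 kept their sign and 7 did not: the log2 fold change ranged from -0.01 to 0.19 for Atg3, -0.12 to 0.03 for Atg4b, -0.03 to 0.10 for Becn1, -0.10 to 0.12 for Tfe3, -0.24 to 0.07 for Ulk1, -0.04 to 0.09 for Ulk3 and -0.06 to 0.10 for Wipi2. The named genes of the pathway lists were also refitted under all these settings, after seeing the data; of 11 genes, 0 changed sign, and Deptor was called by DESeq2 and without Gli3 Δ/Δ replicate 2. With DESeq2 size factors, also tried after seeing the data, 3 members had groups without overlap and the median SD was 0.15. With 3 pools a genotype, the intervals, not the absence of calls, bound the members' changes. ASC libraries enter only through a mean, so activation has no test here.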
